A study of Homo sapiens with 25 samples.

Results

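The 10 heat shock response chaperone genes described here are HSPA1A, HSPA1B, HSPA8, HSPA4, HSPH1, HSP90AA1, HSP90AB1, HSPB1, DNAJB1 and BAG3, taken by symbol from the 63086 genes of the count files. The values are levels of their mRNAs in RNA immunoprecipitation sequencing (RIP-seq), in which a protein is captured from cell lysate and the RNA that comes down with it is sequenced. The captured protein was IGF2BP1, an mRNA-binding protein that enters stress granules, fused to the red fluorescent protein mCherry and pulled down with RFP-Trap beads. The cells were HCT116, a human colorectal carcinoma line, and all 4 mCherry lines carried knockouts of IGF2BP2 and IGF2BP3, the inducible Tet-OsTIR1-PURO construct and a lentiviral transgene driven by the hPGK promoter. The lines expressed IGF2BP1 as wild-type (WT), as S181E, as Y396E or as RQ, in which arginines of the first linker were changed to glutamine. Each line was a population sorted within a narrow mCherry gate rather than 1 clone. Cells received PBS (control) or 500 µM sodium arsenite for 2 h, and dishes were plated and grown independently. Each line and treatment had 3 libraries, except RQ in arsenite with 2 (replicates 1 and 2), which gave 23 mCherry libraries. For parental cells there was 1 library per treatment, which measured RNA that came down without the bait. Their genotype label is HCT116 alone, with neither the mCherry fusion nor the knockouts and the inducible construct of the 4 lines, so parental ratios compare cells that differ in more than the fusion protein. Total RNA of the same cells was not analysed here. A change in the pulldown, a change in the amount of an mRNA in the cells and a change in RNA retained without the bait cannot be told apart.

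The heat shock response is a transcriptional program in which the heat shock factor HSF1, held inactive by chaperones in unstressed cells, forms trimers when unfolded proteins accumulate and binds heat shock elements in promoters. A heat shock element is built of inverted repeats of the unit NGAAN (N is any base). Sodium arsenite reacts with protein thiols and is a classical inducer of this response and of stress granules, the condensates in which untranslated mRNA and RNA-binding proteins gather. The induced proteins are ATP-dependent chaperones of the HSP70 and HSP90 families, the cochaperones that hand clients to them or release nucleotide from them, and small heat shock proteins that hold unfolded clients.

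HSPA1A (ENSG00000204389.10, chr6:31815543-31817946, plus strand) and HSPA1B (ENSG00000204388.7, chr6:31827738-31830254, plus strand), in hg38 coordinates, encode the stress-inducible cytosolic HSP70 and lie as neighbours on chromosome 6. Their coding sequences of 1926 bases differ at 4 positions, and the first 120 coding bases, printed from the GENCODE transcripts to show how little separates the copies, were identical in both genes.

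HSPA1A, chr6:31815757-31815876, plus strand, and HSPA1B, chr6:31827951-31828070, plus strand: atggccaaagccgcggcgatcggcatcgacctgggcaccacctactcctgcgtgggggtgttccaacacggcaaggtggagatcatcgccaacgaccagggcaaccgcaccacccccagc

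The authors counted no read that maps to several places, so these genes were measured only through the positions at which they differ. Of the 2301 stretches of 100 bases (the read length) along the HSPA1A transcript, 1666 occurred exactly in another transcript, and for HSPA1B the number was 1761 of 2418. This left 635 unique starts in HSPA1A and 657 in HSPA1B. Summed over the mCherry libraries, the counts were 117 for HSPA1A and 3086 for HSPA1B in control, and 1157 and 32773 in arsenite. HSPA1A thus held 3.65% of the reads assigned to either copy in control and 3.41% in arsenite. Per unique start this was 0.184 reads for HSPA1A and 4.7 for HSPA1B in control, so the difference between the copies remained after allowing for exact repeats. How the aligner divided reads with mismatches between the copies was not tested, and both values are uncertain. Among the other genes, 6.05% of the stretches of HSPB1, 2.33% of HSP90AA1 and 1.67% of HSP90AB1 recurred elsewhere, mostly in the pseudogenes HSPB1P1, HSP90AA2P and HSP90AB3P. No stretch of HSPA8, HSPA4, HSPH1, DNAJB1 or BAG3 did.

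The remaining genes differ in their role. HSPA8 (ENSG00000109971.14, chr11:123057489-123062335, minus strand) encodes the constitutive cytosolic HSP70, HSC70. HSPA4 (ENSG00000170606.16, chr5:133052013-133106449, plus strand) and HSPH1 (ENSG00000120694.20, chr13:31134973-31162388, minus strand) encode HSP110 proteins, nucleotide exchange factors of HSP70. HSP90AA1 (ENSG00000080824.19, chr14:102080742-102139686, minus strand) encodes the inducible and HSP90AB1 (ENSG00000096384.20, chr6:44246166-44253888, plus strand) the more constitutive cytosolic HSP90. DNAJB1 (ENSG00000132002.9, chr19:14514769-14560262, minus strand) encodes the J-domain protein HSP40, which delivers clients to HSP70 and stimulates its ATPase. BAG3 (ENSG00000151929.10, chr10:119651380-119677819, plus strand) encodes a nucleotide exchange factor that links HSP70 to small heat shock proteins and selective autophagy. HSPB1 (ENSG00000106211.10, chr7:76302673-76304295, plus strand) encodes the small heat shock protein HSP27.

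The promoter windows of RefSeq (GRCh38.p14, 250 bases before to 50 bases after an annotated start) were searched for the inverted repeat of the heat shock element. Promoters of HSPA1A, HSPA1B, HSP90AB1 and DNAJB1 are printed. These genes cover the inducible HSP70 copies, the HSP90 gene with the highest levels and a cochaperone. The arsenite change of this cochaperone, DNAJB1, was called different from WT in S181E and Y396E with the main settings. These calls were lost under other settings. Capitals mark matches to GAANNTTC or TTCNNGAA. HSP90AB1 and DNAJB1 have 3 windows each, of which the one with the most matches is shown.

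HSPA1A, chr6:31815293-31815592, plus strand: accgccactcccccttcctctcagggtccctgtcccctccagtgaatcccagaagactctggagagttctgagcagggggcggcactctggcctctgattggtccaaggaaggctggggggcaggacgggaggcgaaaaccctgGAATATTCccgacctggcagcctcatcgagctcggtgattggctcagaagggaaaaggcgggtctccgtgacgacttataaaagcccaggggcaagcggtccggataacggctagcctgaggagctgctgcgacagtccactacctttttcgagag

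HSPA1B, chr6:31827488-31827787, plus strand: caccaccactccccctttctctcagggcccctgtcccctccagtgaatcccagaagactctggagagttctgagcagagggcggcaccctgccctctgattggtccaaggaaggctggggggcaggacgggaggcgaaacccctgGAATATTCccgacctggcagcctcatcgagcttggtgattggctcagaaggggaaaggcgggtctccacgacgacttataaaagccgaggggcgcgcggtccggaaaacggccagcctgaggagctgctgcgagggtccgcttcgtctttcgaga

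HSP90AB1, chr6:44247693-44247992, plus strand: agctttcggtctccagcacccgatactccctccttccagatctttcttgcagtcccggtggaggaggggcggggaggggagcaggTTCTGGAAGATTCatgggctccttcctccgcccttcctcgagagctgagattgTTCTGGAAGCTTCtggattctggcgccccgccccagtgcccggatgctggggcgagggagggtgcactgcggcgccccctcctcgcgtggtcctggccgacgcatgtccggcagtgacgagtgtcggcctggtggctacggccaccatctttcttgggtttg

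DNAJB1, chr19:14518348-14518647, minus strand: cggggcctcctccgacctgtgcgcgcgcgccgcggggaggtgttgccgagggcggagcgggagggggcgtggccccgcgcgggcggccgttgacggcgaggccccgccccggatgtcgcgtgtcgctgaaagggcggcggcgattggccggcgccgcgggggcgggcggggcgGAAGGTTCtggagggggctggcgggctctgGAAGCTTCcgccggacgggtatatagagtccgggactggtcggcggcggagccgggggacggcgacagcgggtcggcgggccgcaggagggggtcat

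The HSPA1A match began 106 bases and the HSPA1B match 105 bases before the start, and the matched letters were the same. In HSP90AB1, matches that overlapped in pairs began 165 and 160 bases and 112 and 107 bases before the annotated start of the window shown. The other HSP90AB1 windows, which lie before it on the chromosome, held no match. In the DNAJB1 window shown, matches began 77 and 47 bases before its start. Of the other DNAJB1 windows, 1 held a match. At least 1 pair of units, GAANNTTC or TTCNNGAA searched on both strands with overlaps allowed, was present in any window of 7 of the 10 genes, which is 70%, against 16.2% of 27305 genes with a window and 13.1% of the 7194 tested genes among them. Runs of 3 units (GAANNTTCNNGAA or TTCNNGAANNTTC) were present in HSPA8, HSP90AA1 and HSP90AB1, against 0.608% of all genes with a window. The windows of HSPA4, HSPH1 and BAG3 did not hold these letters. A match is a description of the sequence, and no binding of HSF1 was measured.

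The 23 mCherry libraries held 22246381 to 60273548 counts, with 60.1 to 66.6% on protein-coding genes in control and 68.7 to 76.6% in arsenite, and 31.8 to 38.2% and 22.2 to 30.1% on mitochondrial ribosomal RNA. The part of this shift in the results was not tested. The 10 genes together took 0.107 to 0.212% of the protein-coding counts in control and 0.361 to 0.542% in arsenite, ranges that did not overlap. The parental libraries were unequal in depth, with 1238013 counts in control and 18942497 in arsenite. The bait IGF2BP1 had 37.2 to 123 CPM (counts divided by library size after edgeR's TMM correction) in the mCherry libraries and 0 counts in both parental libraries. The paper reports no expression of IGF2BP1 in HCT116 cells. Reads of the transgene and of the endogenous gene were not separated here. The epithelial markers EPCAM, KRT8, KRT18 and CDH1 were present in all mCherry libraries. Their summed level was 511 to 935 CPM in control and 1233 to 1889 CPM in arsenite, and all 4 rose with arsenite in every line. Their part in the results below was not tested. Of 6 markers of leukocytes, fibroblasts and endothelium, PTPRC and COL1A2 were at 0 in every mCherry library. The fibroblast marker COL1A1 was at 1.58 to 13.4 CPM (median 8.92) there and at 32.8 CPM in the parental arsenite library. CD3E, PECAM1 and VWF reached at most 0.0386, 1.42 and 0.967 CPM in the mCherry libraries. The sum of the 6 was 1.58 to 12.3 CPM in control and 9.01 to 13.8 CPM in arsenite.

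Levels of different genes were compared as CPM per kilobase of all annotated exons of a gene. For DNAJB1 this length was 6887 bases, against 2242 bases in the transcript searched above for repeats. For BAG3 both lengths were 2561 bases. Which transcripts the reads came from was not determined, so the place of DNAJB1 in the orders below depends on the length used. In WT control, HSPB1 (137 ± 15.2 CPM per kb, SD, n = 3), HSPA8 (132 ± 11.5) and HSP90AB1 (117 ± 10.8) were highest, and the ranges of these neighbours overlapped. HSP90AA1 followed at 79.2 ± 11.03, and DNAJB1, BAG3, HSPH1 and HSPA4 lay at 25.7 ± 3.12, 19.9 ± 1.52, 13.1 ± 1.62 and 9.64 ± 1.07 CPM per kb. HSPA1B was at 6.20 ± 2.06 and HSPA1A at 0.191 ± 0.25 CPM per kb, both read only through their unique positions. In WT arsenite the order changed. HSP90AB1 led at 416 ± 22.2 CPM per kb, followed by HSPA8 at 325 ± 5.10, while HSPB1 came next at 168 ± 7.06. HSPA1B reached 53.8 ± 6.57 CPM per kb, a range that overlapped that of HSPH1 at 55.9 ± 2.21, and passed HSPA4 at 30.8 ± 1.26. HSPA1B was divided by its full 2517 bases, although 657 of its 2418 stretches were unique. Its value per kb is therefore too low beside genes without repeats, and its place below HSPH1 is uncertain.

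Of the criteria by which the study defined targets, the one that can be read from these libraries is a level 4-fold above the parental pulldown. The other compares the pulldown with RNA-Seq, which was not analysed here. None of the 9 tested genes reached 4-fold in any of the 8 mCherry groups. Of all tested genes, 49% did so in WT control and 9.18% in WT arsenite (43.9 and 4.29% by total counts without TMM factors). A gene without parental reads counts as above any threshold in these shares, and the number of such genes was not determined. At 8-fold, with TMM factors, the shares were 44.4% in WT control and 3.29% in WT arsenite. HSPA1A was too low to be tested and is treated below. With TMM factors, HSPH1 was the only one of the 9 above its parental level in control, at 2.45 times in WT, 1.97 in S181E, 1.66 in Y396E and 2.13 in RQ, against a parental value of 30.4 CPM that rests on 45 reads. The TMM factors of the parental libraries were 2.00 in control and 1.45 in arsenite, and by total counts without them the HSPH1 ratio was 1.06 in WT, 0.963 in S181E, 0.875 in Y396E and 0.979 in RQ, so its direction depends on the scaling in the 3 mutants. In WT control the ratio was 0.304 for HSPA1B, 0.65 for HSPA8, 0.29 for HSP90AB1 and 0.704 for DNAJB1. In WT arsenite it was 0.287, 0.338, 0.357 and 0.534 for the same genes. BAG3 had 0.972 times its parental level in WT arsenite, the closest to 1, and no gene was above 1 in arsenite in any line with either scaling. With 1 parental library per treatment these ratios have no replicate error.

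**Figure D1:**
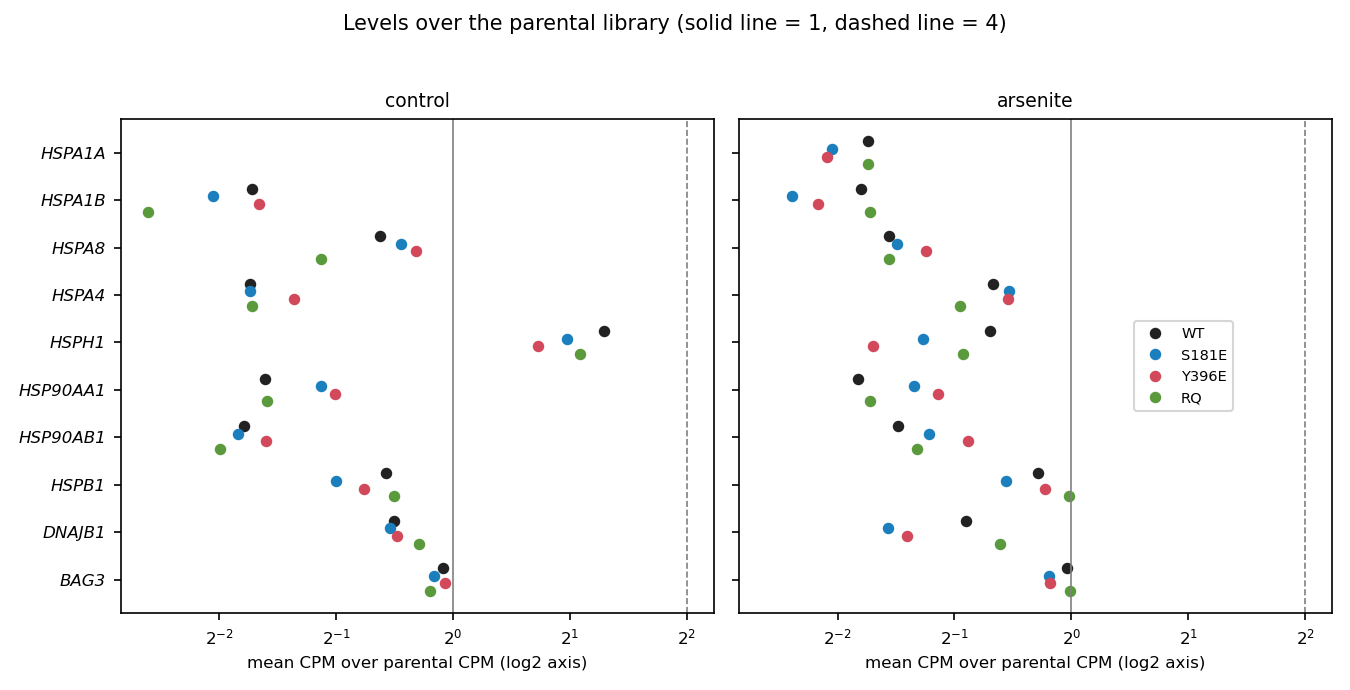
Ratio of a group's mean CPM to the parental CPM of the same treatment (log2 axis, 1 point per line) for the 9 tested genes and, in arsenite, for HSPA1A, whose parental control count was 0, with lines at 1 and at the 4-fold criterion. Levels are scaled by TMM. All points lie below 4, and only HSPH1 in control lies above 1, which by total counts holds in WT alone (1.06, and 0.875 to 0.979 in the mutants).

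Arsenite against control was compared within each line to see how the pulldown of these mRNAs changed under stress. In WT, 8 of the 9 tested genes rose and none fell, where 35.4% of all 8734 tested genes were called higher and 31.8% lower. In S181E, Y396E and RQ all 9 rose, against 33.3, 31.3 and 32.4% of all tested genes, with 34.6, 33.8 and 32.3% called lower. The median log2 fold change of the 9 genes was 1.67 in WT, 1.79 in S181E, 1.43 in Y396E and 1.81 in RQ, beside medians between -0.02 and 0.03 for all tested genes. Over 1532 background genes, defined as tested genes whose mean over the mCherry libraries was not above the parental value in either treatment, a set that holds 8 of these 9, the medians were 0.29, 0.34, 0.32 and 0.26. A gene was called when the edgeR quasi-likelihood test gave a Benjamini-Hochberg adjusted p under 0.05 and the change exceeded 20%.

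The inducible HSP70 mRNA changed most. HSPA1B was at 16.6, 20.2 and 9.99 CPM in WT control and at 118, 137 and 151 CPM in WT arsenite, and the groups lay far apart. The change was 8.56-fold (log2 fold change 3.10 ± 0.21 (SE), edgeR adjusted p = 1.11e-11). In RQ it was 16.6-fold, from 11.7, 7.64 and 5.77 to 147 and 139 CPM. In S181E it was 7.15-fold, from 11.5, 11.5 and 14.1 to 85.1, 87.5 and 97.9 CPM. In Y396E it was 6.50-fold, from 16.04, 14.8 and 17.8 to 111, 98.1 and 106 CPM. RQ had the lowest mean of the 4 lines in control, and its arsenite libraries lay within the WT range. HSPA1A did not exceed 10 CPM in any mCherry library and was left out of the test for this reason. Its levels were 0, 0.239 and 1.14 CPM in WT control and 4.99, 3.62 and 5.32 CPM in WT arsenite, and over all lines the control libraries ranged from 0 to 1.51 and the arsenite libraries from 2.13 to 5.32 CPM. With edgeR's filterByExpr, which keeps such low genes, HSPA1A was called higher in all 4 lines, with log2 fold changes from 2.27 in S181E to 3.68 in RQ. Because the copies share most of their sequence, their counts were also summed, which gave log2 fold changes of 3.11 in WT, 2.81 in S181E, 2.71 in Y396E and 4.04 in RQ.

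The parental pulldown moved in the same direction. HSPA1B was at 51.3 CPM in the parental control library and 472 CPM in the arsenite library, a ratio of 9.20 with a 95% counting interval of 7.35 to 11.7. By total counts every parental ratio of arsenite to control given here and below is 1.38 times smaller, which makes it 6.68 for HSPA1B. HSPA1A had 0 reads in the parental control library, which allows up to 2.02 CPM, and 359 reads or 15.5 CPM in the arsenite library. The change in HSPA1B was therefore also present in RNA that came down without the bait, and its part in the mCherry values was not tested.

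HSPA8, the constitutive HSP70, was at 361, 383 and 322 CPM in WT control and 861, 888 and 881 CPM in WT arsenite. It rose 2.44-fold in WT (log2 fold change 1.29 ± 0.10 (SE), edgeR adjusted p = 2.45e-10), 2.25-fold in S181E, 2.49-fold in Y396E and 3.51-fold in RQ. The parental ratio was 4.73 (95% counting interval 4.42 to 5.08). The HSPA8 fold was smaller than that of HSPA1B in every line.

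Both HSP110 genes rose. HSPH1 was at 72.1, 84.7 and 66.8 CPM in WT control and at 305, 316 and 330.2 CPM in WT arsenite, 4.22-fold higher (log2 fold change 2.08 ± 0.09 (SE), edgeR adjusted p = 2.63e-14). The lines differed in this increase in value, with 3.50-fold in S181E, 3.14-fold in Y396E and 4.15-fold in RQ. The parental ratio of HSPH1 was 16.9 (95% counting interval 12.6 to 23.2), the largest among these genes with parental reads in both treatments. HSPA4 was at 40.3, 50.05 and 47.8 CPM in WT control and 140.0, 150.3 and 150.5 CPM in WT arsenite, 3.17-fold higher (log2 fold change 1.67 ± 0.10 (SE), edgeR adjusted p = 8.39e-13). In the other lines HSPA4 rose between 2.58-fold in RQ and 3.46-fold in S181E. Here the parental ratio was 1.53 (1.34 to 1.76), below the fold change of each mCherry line.

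The HSP90 genes moved unequally. HSP90AB1 was at 353, 377 and 313 CPM in WT control and at 1190.4, 1211 and 1314 CPM in WT arsenite, 3.53-fold higher (log2 fold change 1.82 ± 0.11 (SE), edgeR adjusted p = 3.43e-12). HSP90AA1 was at 281, 356 and 284 CPM and at 485, 488 and 543 CPM, 1.63-fold higher (log2 fold change 0.71 ± 0.13 (SE), edgeR adjusted p = 4.98e-05). In S181E, Y396E and RQ the fold was 4.38, 4.76 and 4.62 for HSP90AB1 and 1.62, 1.74 and 1.73 for HSP90AA1. The gene usually described as inducible thus had the smaller change of the 2 in each line. In the parental pair the ratios were 2.89 for HSP90AB1 and 1.91 for HSP90AA1.

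Among the cochaperones, BAG3 was at 51.00, 54.8 and 46.99 CPM in WT control and at 288, 283 and 285 CPM in WT arsenite, 5.56-fold higher (log2 fold change 2.48 ± 0.11 (SE), edgeR adjusted p = 2.75e-14). The BAG3 increase was 5.26-fold in S181E, 5.04-fold in Y396E and 6.20-fold in RQ, and 5.44-fold in the parental pair. DNAJB1 was at 157, 174 and 199.5 CPM in WT control and at 506, 547 and 557 CPM in WT arsenite, 3.01-fold higher (log2 fold change 1.59 ± 0.09 (SE), edgeR adjusted p = 1.26e-12). It rose 3.19-fold in RQ, 2.11-fold in Y396E and 1.93-fold in S181E, and the parental ratio was 4.00 (3.61 to 4.45).

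HSPB1 was the one gene of the 9 not called in WT. It was at 140.4, 147 and 119 CPM in WT control and at 171, 169 and 158 CPM in WT arsenite, and while these values did not overlap, the gene did not pass the test (log2 fold change 0.28 ± 0.16 (SE), edgeR adjusted p = 0.123). It was called higher in WT with all biotypes (0.44), with only the groups compared (0.29) and with the replicate block (0.29), and no interaction of HSPB1 was called in any mutant. In S181E (0.43), Y396E (0.53) and RQ (0.48) the log2 fold change passed. The parental ratio was 1.00 (0.890 to 1.13), and 0.726 by total counts. The HSPB1 call was lost in S181E without S181E arsenite replicate 2 or control replicate 3, and in RQ without RQ arsenite replicate 2 or control replicate 3. It was also lost with edgeR's glmTreat in S181E and RQ, and with only the groups compared in RQ. Scaled by TMM over these 1532 background genes alone, the log2 fold change of HSPB1 was -0.03 in WT, 0.05 in S181E, 0.14 in Y396E and 0.21 in RQ, with no call in any line. This scaling moved the median of all tested genes by between -0.40 and -0.29 in these comparisons and left the other 8 genes called higher in every line.

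**Figure D2:**
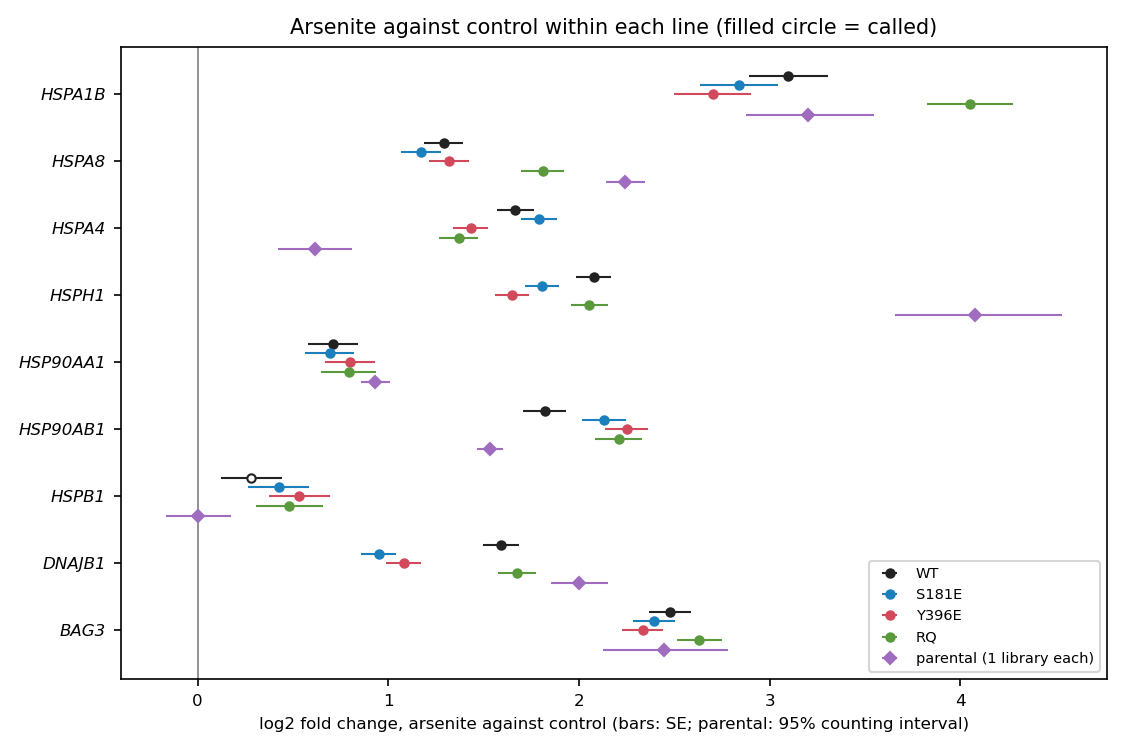
Log2 fold change of arsenite against control for the 9 tested genes in the 4 lines (bars are SE, filled circles are called), with the parental ratio as a diamond with its 95% counting interval. HSPA1B reaches 4.05 in RQ, and HSPB1 lies between 0.28 and 0.53.

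The mutant lines were compared with the WT line in control to describe how the pulldown differed without stress. Each line was a single transduced and sorted population, so the mutation and other differences between lines cannot be told apart. The replicates were dishes of a line, and the tests measure the spread between dishes. The comparisons of a treatment share the same WT libraries. In S181E control HSP90AA1 was higher and HSPH1 lower, 1 gene in each direction of 9, where 12.8% of all tested genes were called higher and 8% lower. In Y396E control HSP90AA1, HSPA4 and HSPA8 were higher and HSPH1 was lower, where 16.2% of all tested genes were called higher and 12.7% lower. In RQ control HSPA1B and HSPA8 were lower and no gene was higher, where 3.51% were called higher and 2.83% lower.

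HSP90AA1 was at 419, 449 and 415 CPM in S181E control and at 440.1, 522 and 436 CPM in Y396E control, all above the WT libraries at 281, 356 and 284 CPM. The log2 fold change was 0.49 ± 0.13 (SE) in S181E (edgeR adjusted p = 0.00995) and 0.62 ± 0.13 in Y396E (edgeR adjusted p = 0.00108). HSPH1 was at 48.9, 49.9 and 52.4 CPM in Y396E control and at 60.5, 63.5 and 55.6 CPM in S181E control, both groups below WT at 72.1, 84.7 and 66.8 CPM. The log2 fold change was -0.55 in Y396E (edgeR adjusted p = 8.03e-05) and -0.31 in S181E (edgeR adjusted p = 0.0167). The S181E call of HSPH1 was lost without S181E control replicate 3 or WT control replicate 2. It was also lost with all biotypes, edgeR's glmTreat, no filter, total counts or only the groups compared. The S181E call of HSP90AA1 was lost with glmTreat or only the groups compared.

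In Y396E control, HSPA4 was at 55.02, 65.7 and 58.7 CPM against 40.3, 50.05 and 47.8 CPM in WT (log2 fold change 0.40 ± 0.09 (SE), edgeR adjusted p = 0.00309). HSPA8 was at 428, 461 and 433 CPM against 361, 383 and 322 CPM in WT (log2 fold change 0.32 ± 0.10 (SE), edgeR adjusted p = 0.0208), a call lost without WT control replicate 3 or Y396E control replicate 2. Scaled over the background genes, which moved the median of all genes by -0.18, the log2 fold changes were 0.21 for HSPA4 and 0.14 for HSPA8, and neither was called. In RQ control HSPA8 was at 279, 265 and 208 CPM, below every WT library (log2 fold change -0.50 ± 0.10 (SE), edgeR adjusted p = 0.00577). HSPA1B was at 11.7, 7.64 and 5.77 CPM in RQ control against 16.6, 20.2 and 9.99 CPM in WT (log2 fold change -0.87 ± 0.21 (SE), edgeR adjusted p = 0.0168). The HSPA1B groups overlapped, and the call was lost without RQ control replicate 2 or WT control replicate 2. With glmTreat or with only the groups compared, the calls of HSPA8 and HSPA1B in RQ control were lost. The calls of HSPA4 and HSPA8 in Y396E control were lost with the same settings. In the model over all libraries DNAJB1, HSP90AB1, BAG3 and HSPB1 did not pass the test in any mutant in control, with log2 fold changes between -0.42 for HSPB1 in S181E and 0.22 for DNAJB1 in RQ. Without WT control replicate 3, HSPB1 (log2 fold change -0.51) and HSPA1B (-0.56) were called lower in S181E control, and HSPB1 was also called without S181E control replicate 2. HSPB1 was called lower there too with DESeq2's Wald test (-0.46), DESeq2 size factors (-0.45), scaling over the background genes (-0.46), no filter (-0.42) and the replicate block (-0.43). By total counts HSP90AB1, DNAJB1 and BAG3 were called higher in Y396E control and DNAJB1 in RQ control, at 0.30 to 0.47.

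In arsenite DNAJB1 and HSPH1 were lower in S181E and Y396E than in WT. DNAJB1 was at 339, 344 and 334 CPM in S181E, at 391, 382 and 363 CPM in Y396E, at 506, 547 and 557 CPM in WT and at 656 and 661 CPM in RQ. No 2 of these groups overlapped, and their order was RQ, WT, Y396E and S181E. Compared with WT, DNAJB1 was 1.59-fold lower in S181E (log2 fold change -0.67 ± 0.09 (SE), edgeR adjusted p = 3.07e-05) and 1.39-fold lower in Y396E (log2 fold change -0.47 ± 0.09 (SE), edgeR adjusted p = 0.000419). In RQ the value was 0.30 ± 0.10, which did not pass (edgeR adjusted p = 0.275). With total counts in place of TMM factors, the Y396E difference was -0.25 and under the 20% change required for a call.

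HSPH1 was at 164, 154 and 155 CPM in Y396E, at 215, 205 and 219 CPM in S181E, at 278 and 260.2 CPM in RQ and at 305, 316 and 330.2 CPM in WT. These groups did not overlap either, but here WT was highest and Y396E lowest. HSPH1 was 1.97-fold lower in Y396E (log2 fold change -0.98 ± 0.09 (SE), edgeR adjusted p = 2.95e-08) and 1.49-fold lower in S181E (log2 fold change -0.58 ± 0.09 (SE), edgeR adjusted p = 9.93e-05). With the main settings, HSPH1 (lower) and HSP90AA1 (higher) were the genes of the 9 called in S181E and in Y396E in both treatments. The S181E calls of both genes in control, and of HSP90AA1 in arsenite, were lost under other settings.

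The HSP90 genes were higher in Y396E arsenite. HSP90AA1 was at 808, 862 and 757 CPM in Y396E against 485, 488 and 543 CPM in WT (log2 fold change 0.71 ± 0.13 (SE), edgeR adjusted p = 0.000236). HSP90AB1 was at 1854, 1944 and 1838 CPM against 1190.4, 1211 and 1314 CPM (log2 fold change 0.63 ± 0.11 (SE), edgeR adjusted p = 0.000141). HSPA8 was at 1156, 1083 and 1044 CPM against 861, 888 and 881 CPM (log2 fold change 0.35 ± 0.10 (SE), edgeR adjusted p = 0.0111), a call lost without Y396E arsenite replicate 1 or with glmTreat. In S181E arsenite HSP90AA1 was at 554, 784 and 772 CPM (log2 fold change 0.47 ± 0.13 (SE), edgeR adjusted p = 0.0239). The S181E call was lost with glmTreat, and when S181E arsenite replicate 2 or 3, or WT arsenite replicate 1 or 2, was left out.

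Thus 3 genes were higher and 2 lower in Y396E arsenite, where 13.1% of all tested genes were called higher and 19.4% lower. In S181E arsenite 1 gene was higher and 2 were lower, where the shares were 2.2 and 5.34%. Scaled over the background genes, which moved the median of all genes by -0.27 in Y396E arsenite, the Y396E log2 fold changes were -1.24 for HSPH1, -0.74 for DNAJB1, 0.44 for HSP90AA1 and 0.36 for HSP90AB1, all still called. That of HSPA8 was 0.08 and no longer called, while HSPA1B (-0.60) and BAG3 (-0.38) were called lower. In S181E arsenite the same scaling gave 0.37 for HSP90AA1, which was then not called, and -0.69 for HSPA1B, which was then called lower.

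HSPA1B was at 85.1, 87.5 and 97.9 CPM in S181E arsenite, below every WT library at 118, 137 and 151 CPM. The log2 fold change of -0.59 ± 0.19 (SE) did not pass (edgeR adjusted p = 0.053). In this comparison the replicate numbers were taken to pair the libraries from a correlation alone, since the labels name no shared batch. With the replicate number as a block the value was -0.59 and called lower (edgeR adjusted p = 0.0233, with 3.02e-05 to 0.273 over all alternatives). In Y396E arsenite HSPA1B was at 111, 98.1 and 106 CPM with a log2 fold change of -0.33 that did not pass. BAG3 in arsenite was at 255, 244 and 276 CPM in S181E, 251, 240.2 and 286 CPM in Y396E and 292 and 292 CPM in RQ, against 288, 283 and 285 CPM in WT. Its log2 fold changes against WT lay between -0.15 and 0.04. HSPB1 in arsenite was at 135, 148 and 129 CPM in S181E, below the WT libraries, and at 189.8 and 208 CPM in RQ, above them, and neither difference passed (-0.28 and 0.27). In the model over all libraries BAG3, HSPB1 and HSPA4 passed in no mutant in arsenite, with HSPA4 values from -0.27 in RQ to 0.16 in Y396E. With only the groups compared, HSPB1 was called lower in S181E (-0.28), and by total counts HSPA4 was called higher in S181E (0.30) and Y396E (0.38).

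In RQ arsenite against WT none of the 9 genes was called in the model over all 23 libraries by edgeR's quasi-likelihood test or by DESeq2's Wald test. The edgeR model of only the groups compared called HSPA4 lower (-0.28) and DNAJB1 higher (0.30). At an unadjusted p under 0.05 the edgeR count was 3 of 9, where 9.64% of all tested genes had one. Of all tested genes 0.286% were called higher and 0.218% lower. The RQ values lay between -0.27 ± 0.10 for HSPA4 and 0.30 ± 0.10 (SE) for DNAJB1 on the log2 scale, with 2 RQ libraries behind them.

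**Figure D3:**
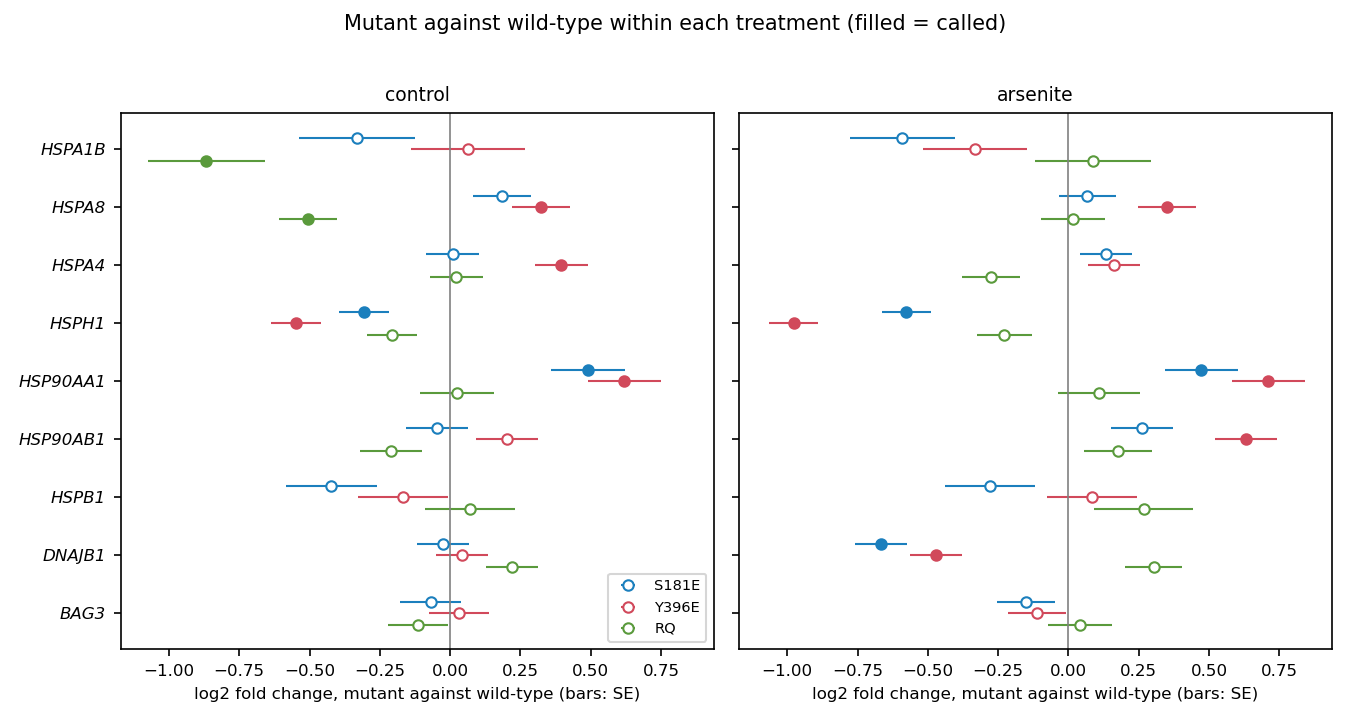
Log2 fold change of each mutant against WT with its SE, in control and in arsenite, for the 9 tested genes, with called values marked. HSPH1 and DNAJB1 lie below 0 in S181E and Y396E arsenite (to -0.98 for HSPH1 in Y396E), and HSP90AA1 lies above 0 in the same mutants in both treatments.

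Whether arsenite changed a gene by another factor in a mutant than in WT was tested with the interaction of line and treatment. DNAJB1 was called in 2 of the 3 mutants. The difference between the arsenite change of the mutant and that of WT was -0.64 ± 0.13 (SE, log2) in S181E (edgeR adjusted p = 0.0333, with 0.00181 to 0.275 over all alternatives) and -0.51 ± 0.13 in Y396E (edgeR adjusted p = 0.0293, with 0.00661 to 0.264 over all alternatives), so DNAJB1 rose by a smaller factor in both than in WT. In control DNAJB1 in both mutants lay within the WT range, at 187, 172 and 159 CPM in S181E and 171, 189 and 179 CPM in Y396E against 157, 174 and 199.5 CPM in WT. Of all tested genes, 0.114% had a positive and 0.275% a negative interaction called in S181E, and 0.447% and 2.4% in Y396E. The S181E call was lost when any 1 of 7 libraries was left out (S181E arsenite replicates 1 to 3, S181E control replicate 1 and WT arsenite replicates 1 to 3), and the Y396E call for any 1 of 9 (WT arsenite replicates 1 to 3, WT control replicate 1, Y396E arsenite replicates 1 to 3 and Y396E control replicates 2 and 3). Without one of these libraries the S181E value lay between -0.68 and -0.58 and the Y396E value between -0.55 and -0.44. Scaled over the background genes the values were -0.70 and -0.59, and neither was called.

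The smaller HSPH1 increase in Y396E did not pass the interaction test (-0.43 ± 0.12, edgeR adjusted p = 0.0625) and passed without WT control replicate 2, at -0.53. It also passed with all biotypes (-0.49), total counts (-0.47) and the replicate block (-0.43). HSPA1B had the largest positive value, 0.95 ± 0.29 in RQ, which did not pass (edgeR adjusted p = 0.248). In RQ no interaction of the 9 genes was called by edgeR, with 4 of 9 at an unadjusted p under 0.05 against 9.66% of all tested genes, and 1 was called by DESeq2 (HSPA8, 0.55). The shares of all tested genes were 0.0572 and 0.0114%.

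The wider chaperone network was described with lists of genes, each by its counts and median. In WT arsenite 35.4% of all tested genes were called higher and 31.8% lower. In WT arsenite against control, 10 of 11 tested HSP90 cochaperones rose and 1 fell, with a median log2 fold change of 0.68. Of 11 chaperonin subunits and mitochondrial chaperones (CCT subunits, HSPA9, TRAP1, CLPB and LONP1, without HSPD1 and HSPE1, which are listed as HSF1 targets) 10 rose and none fell, with a median of 1.43. Among 19 HSP70 cochaperones and relatives 8 rose and 3 fell, with a median of 0.16. Of 11 other HSF1 targets 8 rose and 2 fell, with a median of 0.41, and of 3 genes of the heat shock factors and their regulator 1 rose and 2 fell. The median over all tested genes was 0.03, and that of the 9 tested heat shock genes was 1.67.

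HSPA14, an HSP70 relative of the ribosome-associated complex, was at 53.4 ± 5.96 CPM in WT arsenite and 10.6 ± 1.67 CPM in WT control (SD, n = 3), a log2 fold change of 2.31. HSPA4L, an HSP110 protein, followed with 1.99 and HSPA9, the mitochondrial HSP70, with 1.83. The genes that fell most were HSBP1, which binds heat shock factor trimers (-1.52), the J-domain gene DNAJC8 (-1.18) and BAG1, an exchange factor of HSP70 (-1.17). The edgeR adjusted p of these 6 genes was between 7.2e-13 and 4.46e-08.

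In Y396E against WT in arsenite, the chaperonin subunit CCT5 (log2 fold change 0.73), the ubiquitin gene UBB (0.72) and STIP1, which bridges HSP70 and HSP90 (0.68), were highest among the called genes of these lists. HSPA14 (-1.01), the mitochondrial chaperonin HSPD1 (-0.87, from the list of other HSF1 targets) and the HSP70 cochaperone ST13 (-0.74) were lowest. HSPA14 was at 26.0 ± 3.25 CPM in Y396E arsenite (SD, n = 3). For all tested genes the shares were 13.1% higher and 19.4% lower. Of the 11 genes listed as chaperonin and mitochondrial, which leave out HSPD1, 7 were higher and none lower in Y396E, with a median of 0.53, and of 19 HSP70 cochaperones 2 were higher and 5 lower, with a median of -0.09. Of 11 HSP90 cochaperones 5 were higher and 1 lower (median 0.33), and of 11 other HSF1 targets 3 were higher and 3 lower (median -0.16). The 9 heat shock genes, with 3 higher and 2 lower, had a median of 0.08, beside 0.01 over all tested genes and 0.27 over the background genes.

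The genes most like DNAJB1 across the 8 group means, measured by the root mean square difference of centred log2 levels, were DHCR7 (0.101), FDFT1 (0.116), ANO8 (0.161), LENG8 (0.162) and NOTCH3 (0.167), where the DNAJB1 levels spanned 1.92 on the log2 scale. The sum of HSPA1A and HSPA1B spanned 4.13, and its nearest genes were NFKBIZ (0.224), HERPUD1 (0.245), EGR1 (0.319), FOSB (0.334) and CCNL1 (0.342). These values describe 8 groups that come from the same 23 libraries.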

How the data were processed

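The values the authors deposited are raw counts for 63086 genes in each library, per the file headers from featureCounts (Subread 2.0.6), run reverse-stranded on exons by gene and without reads that map to several places or genes. The submitters' processing notes and the paper's methods name bcl2fastq 2.20.0.422, FastQC 0.11.9 and STAR 2.7.11b with hg38, GENCODE 46 and 2 mismatches allowed. Leaving out reads with several matches lowers genes with near-identical copies. Symbols and biotypes came from GENCODE 44, in which 61547 Ensembl identifiers matched including the version, 62541 matched without it and 545 had no match.

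Here the counts were scaled (TMM, CPM) and tested in edgeR 4.0.16 under R 4.3.3, with limma 3.58.1 and DESeq2 1.42.0 for alternatives and Python 3.11.15, pandas 2.3.3 and matplotlib 3.10.9 for tables, sequences and plots. The test covered protein-coding genes that exceeded 10 CPM in no fewer than 11.5 of 23 mCherry libraries, in all 8734 genes with 9 of the 10 members. A single model with 8 groups and no covariate was fitted to the 23 libraries, and 13 comparisons were read from it with the quasi-likelihood test, adjusted by Benjamini-Hochberg over all tested genes. A call needed an adjusted p under 0.05 and a change above 20%. Printed CPM used TMM factors over all 25 libraries, and the parental libraries entered no test. Parental counts carry 95% intervals and a floor of 3 counts, which cover counting error only, since PCR copies are not independent molecules. The procedure was tested on simulated data with 200 changed genes.

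The members and gene lists were chosen with earlier results of these data known. Named genes are all 10 members, the bait, the 3 highest and 3 lowest called genes of the pathway lists without overlap between groups in the comparisons of WT arsenite with WT control and of Y396E with WT in arsenite, and the 5 genes nearest to DNAJB1 and to the summed HSPA1 copies. Lists were described by counts and medians, with no test.

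Replicate numbers are shared between groups. For S181E and WT in arsenite, the deviations of same-numbered libraries from their group means correlated in every pair (0.28 to 0.39), so the numbers were taken to pair them. This rests on the correlation alone, since the labels name no shared batch. The alternatives were other scalings (DESeq2 size factors, total counts, TMM over 1532 background genes), tests (glmTreat, the Wald test of DESeq2, the adjusted p with no size limit), filters (filterByExpr with 13417 genes, none with 16940), all biotypes with 7753 genes, a model of only the groups compared, the replicate number as a block, summed HSPA1 copies, other thresholds and backgrounds for the parental ratio, and leaving out each library.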

Additional observations from a re-analysis of the deposited data

Results flagged for a closer look

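By the test of the difference itself, the DNAJB1 change with arsenite was called different from WT in S181E and Y396E, not in RQ. Compared with WT it was -0.64 (log2) in S181E, where DNAJB1 rose from 172 ± 14.0 to 339 ± 5.13 CPM (SD, n = 3), and -0.51 in Y396E, where it rose from 179.7 ± 8.82 to 379 ± 14.1 CPM. In WT it rose from 177 ± 21.5 to 537 ± 27.0 CPM. The DNAJB1 call was lost in 7 leave-one-out fits and 4 other settings for S181E, and in 9 and 5 for Y396E. With the main settings the other 8 tested members passed this test in no mutant. Other settings called HSPH1 and HSP90AB1 in Y396E and HSPA8 in RQ.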

How the results depend on the processing

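Of 117 tested member results, none was called in opposite directions under 2 settings. Over their alternative values 2058 kept direction and call, 68 lost the call, 38 gained one, and 77 changed sign while uncalled in both settings. In the 4 comparisons of arsenite with control, 639 alternatives gave 1 sign change, that of HSPB1 in WT with TMM over the background genes (-0.03). The main counts of called members against WT were 2 in S181E control, 4 in Y396E control, 2 in RQ control, 3 in S181E arsenite, 5 in Y396E arsenite and 0 in RQ arsenite. When the model held only the 2 groups under comparison they were 0 in S181E control, 2 in Y396E control, 0 in RQ control, 6 in S181E arsenite and 2 in RQ arsenite. With glmTreat they were 0 in S181E control, 2 in Y396E control and 0 in RQ control. All biotypes gave 1 in S181E control, total counts gave 7 in Y396E control and 5 in S181E arsenite, and TMM over the background genes gave 2 in Y396E control.

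The interaction count was 1 in S181E, 1 in Y396E and 0 in RQ. In S181E it was 0 with TMM over the background genes, glmTreat, no filter or only the groups compared. In Y396E it was 0 with these 4 settings and with DESeq2 size factors, and 2 with DESeq2's Wald test, all biotypes or total counts. In RQ it was 1 with DESeq2's Wald test. At a 2-fold threshold over the parental library 1 member passed in WT control and 1 in RQ control, HSPH1 in both. Leaving out single libraries gave 1 to 4 in S181E control, 3 to 4 in Y396E control, 1 to 2 in RQ control, 2 to 3 in S181E arsenite, 4 to 5 in Y396E arsenite, 0 to 1 for the S181E interaction and 0 to 2 for the Y396E interaction. The cause was not tested for any of these.

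With the replicate number as a block, 3 members had a called interaction in Y396E (DNAJB1, HSPH1 at -0.43 and HSP90AB1 at 0.43), although the numbers were not found to pair these groups. Over all genes, the block raised the calls from 658 to 1105 in S181E arsenite, where the numbers were taken to pair the libraries. It raised them from 554 to 1081 in RQ control and from 249 to 810 in the Y396E interaction, where they were not. In RQ control, same-numbered libraries correlated at 0.0914 to 0.340 and the others at -0.344 to 0.0837. Whether the numbers pair the RQ control libraries was therefore not settled. The model of only the groups compared called 425 genes against 1818 in S181E control, 7 against 554 in RQ control, 1928 against 658 in S181E arsenite and 1037 against 44 in RQ arsenite. DESeq2's Wald test called 121 against 44 in RQ arsenite, and glmTreat 627 against 1818 in S181E control and 1284 against 2838 in Y396E arsenite.

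The share of called genes that were higher depended on the scaling. For arsenite against control it was 48.1 to 52.7%, and 24.7 to 34.1% with TMM over the background genes. For the mutants in control it was 55.4 to 61.6%, with 82.2 to 88.4% by total counts and 23.7 to 50.2% by the background genes, and DESeq2 size factors gave 42.8% in RQ control. In arsenite it was 29.2% in S181E, 40.4% in Y396E and 56.8% in RQ, with 75.3 to 76.7% by total counts and 7.5 to 94.7% by the background genes. Depth limits HSPA1A, with 117 control reads over 12 libraries, and the parental control values, and RQ in arsenite rests on 2 libraries.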

Other observations

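Chaperones of the endoplasmic reticulum and genes of the oxidative and metal response, which belong to other stress programs, were set beside the heat shock genes. In WT arsenite against control, 9 of 13 tested endoplasmic reticulum chaperones were called higher and 1 lower, with a median log2 fold change of 0.72, where 35.4% of all tested genes were called higher and 31.8% lower. Of 9 tested NRF2 targets and metallothionein genes, 2 were higher and 4 lower, with a median of 0.13. In Y396E against WT in arsenite, 5 of 13 endoplasmic reticulum chaperones were higher and 1 lower (median 0.43), and 4 of 9 NRF2 and metallothionein genes were higher and 1 lower (median 0.35), where 13.1% of all tested genes were higher and 19.4% lower.

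The tetramer GGAC, the core of the sequence in which m6A is commonly placed, was counted in 1 transcript per member. It occurred 9.14 times per kb in HSPA1B, 8.33 in HSPA1A, 7.14 in DNAJB1 and 6.44 in HSPB1, above the upper quartile of 5.22 over 8734 tested genes (median 3.55). HSPA8 had 4.42 and BAG3 4.30 per kb, HSP90AB1 3.13 and HSP90AA1 2.48, and HSPA4 with 2.30 and HSPH1 with 1.91 lay below the lower quartile of 2.42. No modification was measured.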
